A study of Mus musculus with 27 samples.

Results

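The genes described here are 10 members of the p53 pathway and the CDK inhibitor families, followed in mouse embryonic fibroblasts (MEFs) with and without the *Firre* locus. They were chosen by symbol as *Trp53*, *Mdm2*, *Cdkn1a*, *Cdkn2a*, *Cdkn2b*, *Ccng1*, *Bax*, *Sesn2*, *Btg2* and *Gdf15*. Each matched 1 row, so that they make up 10 of the 37310 genes in the expression table, and all 10 passed the filter on low counts that left 15387 genes for testing.

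RNA-seq was carried out on 12 libraries in 4 groups of 3, which were female WT, female KO, male WT and male KO. Firre KO cells lack the whole *Firre* long non-coding RNA locus on chromosome X, a germline deletion obtained by recombination between loxP sites placed on either side, and WT cells keep it. MEFs are primary cells grown from mid-gestation embryos, here after removal of the head, limbs and viscera, and the study's cells were expanded from frozen stocks of individual lines. No agent is named for the WT and KO libraries used here. The labels do not say whether the 3 replicates of a group came from separate embryos or cultures, so the p-values below measure the spread between these libraries, which may be technical.

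The p53 protein, encoded by *Trp53*, is a transcription factor that is held low by the ubiquitin ligase MDM2 and is stabilised after DNA damage and other stresses. It switches on genes that stop the cell cycle, repair or kill the cell, and also *Mdm2* itself, which closes a feedback loop. CDK inhibitors bind the kinases that drive cells into S phase, and the *Cdkn2a* and *Cdkn2b* locus is well known in MEFs because its products accumulate as the cells are passaged and enter senescence.

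The libraries held 42986516 to 65454660 expected counts, and all 6 male totals exceeded all 6 female totals. Sex, embryo, culture and depth therefore cannot be told apart in any comparison of female with male MEFs. *Firre* had 91, 90 and 129 counts in the female WT libraries and 287, 307 and 239 in the male WT libraries, and 0 in all 6 KO libraries, which fits the labels. It is listed as *6720401G13Rik*, an older symbol, and was the 1 gene called for KO against WT in each sex (adjusted p = 0.00041 in females and 8.6e-05 in males, edgeR). With the replicate number as a block these became 0.0188 and 0.0118, and with only the libraries compared 0.0115 and 0.0105, past the limit of 0.01. The summed level of 10 fibroblast genes was 16347 to 24063 CPM (expected counts scaled to a common library size) in every library, while 8 macrophage markers summed to 34.8 to 107 CPM in the female libraries and 8.06 to 15.01 CPM in the male libraries. In bulk RNA, fewer cells of a type and less RNA per cell cannot be told apart.

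The promoter sequences of 3 members are shown, because *Cdkn1a* is the best known p53 target and because *Btg2* and *Gdf15* were the p53 targets that differed most between female and male MEFs. Each is the 250 bases before an annotated start in RefSeq (GRCm38.p6), 5′ to 3′ on the strand of the gene, and lies at chr17:29090729-29090978 (plus strand) for the most upstream *Cdkn1a* start, at chr1:134079156-134079405 (minus strand) for *Btg2* and at chr8:70632457-70632706 (minus strand) for the most upstream *Gdf15* start. Capitals mark matches to CATGNNNNNNCATG, the core of a p53 site made of adjacent half-sites, and to TGACGTCA, the cAMP response element.
Cdkn1a: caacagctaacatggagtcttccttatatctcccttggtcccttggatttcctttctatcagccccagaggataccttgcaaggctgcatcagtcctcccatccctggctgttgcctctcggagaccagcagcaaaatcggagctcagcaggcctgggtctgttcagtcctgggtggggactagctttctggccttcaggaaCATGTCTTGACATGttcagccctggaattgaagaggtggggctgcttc
Btg2: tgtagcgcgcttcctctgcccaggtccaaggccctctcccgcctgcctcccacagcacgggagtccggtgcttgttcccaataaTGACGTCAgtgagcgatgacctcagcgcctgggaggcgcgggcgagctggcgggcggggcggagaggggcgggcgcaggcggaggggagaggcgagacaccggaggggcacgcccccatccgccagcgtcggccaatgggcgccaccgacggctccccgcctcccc
Gdf15: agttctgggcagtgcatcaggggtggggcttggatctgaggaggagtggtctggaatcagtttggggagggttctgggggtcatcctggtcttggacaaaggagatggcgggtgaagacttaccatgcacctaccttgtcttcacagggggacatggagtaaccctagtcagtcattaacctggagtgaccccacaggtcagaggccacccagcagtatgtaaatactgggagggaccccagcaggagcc

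The match in *Cdkn1a* spanned 48 to 35 bases before the start and read CATGTCTTGACATG. It was the 1 match among the 13 promoter windows of the 10 genes, and 0.49% of 32851 windows of the same length held this motif on either strand. The full p53 half-site, allowing its degenerate bases and searched on both strands, was found in 5 of the 13 windows (1 each of *Trp53*, *Mdm2*, *Cdkn1a*, *Ccng1* and *Bax*) and in 7.13% of all windows, and in *Cdkn1a* one of its matches overlapped the capitals. TGACGTCA was found in the windows of *Btg2* and *Cdkn2b*, that is in 2 of 13, against 1.55% of all windows. TGATGNAA, the core of an ATF4 composite element, was found in 0 of 13 windows and in 3.45% of all windows. A match is a description of the letters in the window only, and the absence of a match says nothing about the factor.

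Levels of different genes were compared as CPM per kilobase of merged exon. *Ccng1*, which encodes the p53-induced cyclin G1, had the highest mean over the 12 libraries at 285 CPM per kilobase, and its range of 247 to 316 lay above that of *Cdkn1a*, with a mean of 208 and a range of 164 to 230. *Bax* followed at 95.6 (85.3 to 103) and *Mdm2* at 61.7 (48.5 to 72.0). None of these 4 ranges overlapped its neighbour. *Btg2* at 32.1 (23.7 to 42.9) and *Trp53* at 31.0 (26.7 to 35.8) overlapped each other, as did *Cdkn2b* at 17.8 (14.2 to 21.5), *Sesn2* at 15.6 (13.8 to 17.8) and *Cdkn2a* at 14.3 (7.00 to 22.04). *Gdf15* was the lowest of the 10 at 2.75 (0.895 to 4.90). In CPM, *Bax* varied least, by 1.204-fold from the lowest to the highest library, and *Gdf15* and *Cdkn2a* varied most, by 5.47-fold and 3.15-fold.

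**Figure D1:**
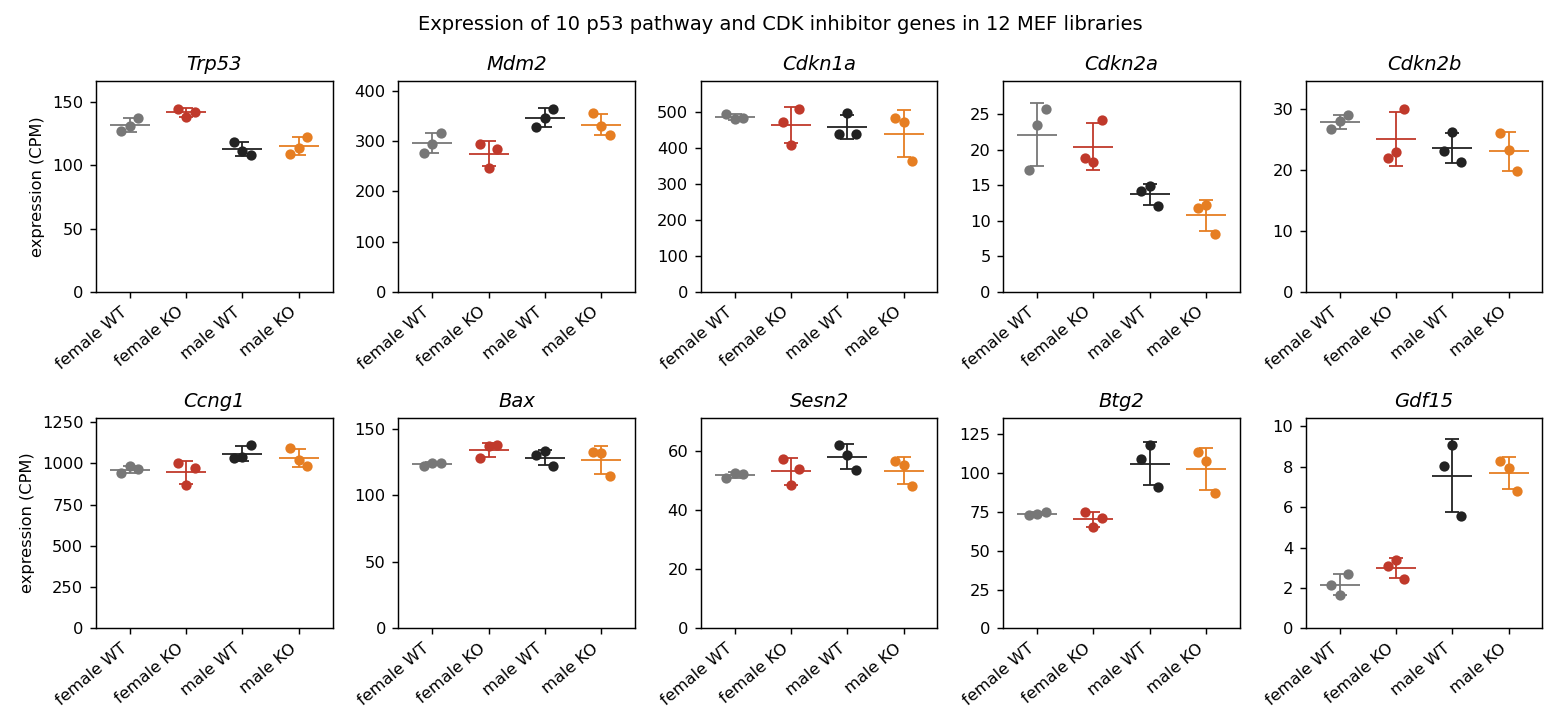
Expression of the 10 genes in CPM (vertical axes from 0, one scale per gene) in female WT, female KO, male WT and male KO MEFs; points are the 3 libraries of a group in replicate order, horizontal lines the mean and bars 1 SD. WT and KO points lie at similar heights within each sex, while *Gdf15* lies at 1.66 to 3.39 CPM in the 6 female libraries and at 5.55 to 9.07 CPM in the 6 male libraries.

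The first question was whether loss of *Firre* changed these genes within either sex. No member passed the test. With the study's thresholds, an adjusted p below 0.01 together with more than a 2-fold change either way, edgeR called 0 of 10 members in female MEFs and 0 of 10 in male MEFs, where 0.0065% of all tested genes were called in each sex. DESeq2 also called 0 in each, where it called 0.0166% and 0.00829% of the 24131 genes to which it gave an adjusted p, and 0 of 10 members had an unadjusted p under 0.05 in either sex, against 7.55% of all tested genes in female and 2.06% in male MEFs. The intervals set the size of change that could be missed. All 10 members had 95% intervals inside a 2-fold change in both directions, in each sex, and without *Gdf15* the 9 others reached from 0.702-fold to 1.21-fold in females and from 0.594-fold to 1.19-fold in males. The median log2 fold change of the 10 was -0.04 in both sexes, beside 0.00 over all tested genes.

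*Trp53* (chr11:69393861-69405375 in mm9, plus strand) was read at 127, 131 and 138 CPM in female WT and at 145, 138 and 143 CPM in female KO MEFs. The male libraries held 119, 111 and 108 CPM in WT and 109, 114 and 123 CPM in KO libraries. The 3 female KO libraries lay just above the 3 female WT libraries, and the male groups overlapped. The log2 fold change of KO against WT was 0.10 ± 0.05 (SE, n = 3 per group, 95% interval -0.01 to 0.22) in females and 0.03 ± 0.05 (-0.09 to 0.14) in males. *Bax*, which encodes the pore-forming protein that opens the outer mitochondrial membrane in apoptosis, was the other member whose female groups did not overlap, at 122, 124 and 124 CPM in WT and at 128, 137 and 137 CPM in KO libraries. Its log2 fold change was 0.12 ± 0.06 (-0.01 to 0.25) in females and -0.02 ± 0.06 (-0.15 to 0.11) in males. Female KO libraries without overlap with WT were found for 2 of 10 members, and for 19.1% of all tested genes, and in male MEFs for 0 of 10 members and 5.29% of genes.

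*Mdm2* (chr10:117125944-117147814, minus strand) was at 276, 295 and 317 CPM in female WT and at 294, 246 and 285 CPM in female KO MEFs. The male libraries held 327, 347 and 365 CPM in WT and 356, 330.1 and 313 CPM in KO. WT and KO overlapped in both sexes, with log2 fold changes of -0.11 ± 0.08 (-0.27 to 0.06) and -0.06 ± 0.08 (-0.23 to 0.11). The female value ranged from -0.16 without female KO replicate 1 to -0.031 without female KO replicate 2, and the male value from -0.11 without male KO replicate 1 to -0.014 without male KO replicate 3. Its expected counts were not whole numbers in any of the 12 libraries, while those of the other members were whole in all 12. Part of its reads also matched another gene and were divided by the authors' counting, which adds an uncertainty to its level. The share of its reads that was divided was not measured.

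The 3 CDK inhibitors had log2 fold changes below 0 in both sexes with all libraries, and none passed the test. Of these 6 values, 4 turned above 0 when 1 library was left out. *Cdkn1a* (chr17:29227924-29237667), which encodes p21, was at 496, 482 and 483 CPM in female WT and at 474, 410.1 and 510.4 CPM in female KO MEFs. Its male values were 439.8, 498 and 439 CPM in WT and 484, 473 and 365 CPM in KO libraries. The KO libraries of each sex spread more widely than the WT libraries and included them or overlapped them. The log2 fold change was -0.07 ± 0.10 (-0.30 to 0.16) in females and -0.06 ± 0.10 (-0.29 to 0.17) in males. It turned to 0.015 without female KO replicate 2 in females and to 0.060 without male KO replicate 3 in males.

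*Cdkn2a* (chr4:88920377-88940557, minus strand) encodes p16Ink4a, an inhibitor of CDK4 and CDK6, and p19Arf, an inhibitor of MDM2, in different reading frames, and a count per gene does not separate the transcripts. It was at 17.2, 23.4 and 25.8 CPM in female WT and at 18.8, 18.3 and 24.2 CPM in female KO libraries. Male WT libraries held 14.2, 14.9 and 12.1 CPM and male KO libraries 11.8, 12.2 and 8.19 CPM, and the male groups overlapped by a narrow margin. The male log2 fold change of -0.35 ± 0.18 (-0.75 to 0.05) was the lowest of any member, with an unadjusted p of 0.0826 and an adjusted p of 1 (edgeR, Benjamini-Hochberg), and it was -0.19 without male KO replicate 3. The female value was -0.12 ± 0.18 (-0.51 to 0.28), and 0.010 without female WT replicate 3. The neighbouring *Cdkn2b* (chr4:88952198-88956941, minus strand), which encodes p15Ink4b, was at 26.6, 28.0 and 28.9 CPM in female WT and 21.97, 22.9 and 30.0 CPM in female KO libraries, and at 23.1, 26.2 and 21.2 CPM in male WT and 26.1, 23.2 and 19.7 CPM in male KO libraries. Its groups overlapped in both sexes, with log2 fold changes of -0.16 ± 0.13 and -0.03 ± 0.13. The female value ranged from -0.31 without female KO replicate 3 to -0.073 without female KO replicate 1, and the male value turned to 0.068 without male KO replicate 3.

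Among the other p53 targets, *Gdf15* (chr8:73153292-73156355, minus strand), a secreted stress cytokine of the TGF-beta superfamily, had the highest KO value in females. It was at 2.13, 1.66 and 2.71 CPM in female WT and at 3.10, 3.39 and 2.43 CPM in female KO libraries, from 75 to 158 counts, and the groups overlapped. Its log2 fold change of 0.45 ± 0.22 (-0.03 to 0.94) did not pass (unadjusted p = 0.0655, adjusted p = 0.684, edgeR), and it ranged from 0.29 without female WT replicate 2 to 0.65 without female WT replicate 3. In males the log2 fold change was 0.02 ± 0.20 (-0.42 to 0.47).

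*Ccng1* (chr11:40562054-40568813) was at 939, 983 and 964 CPM in female WT and at 1002, 869 and 972 CPM in female KO libraries. Male WT libraries held 1033, 1036 and 1110.2 CPM and male KO libraries 1093, 1018 and 985 CPM. *Ccng1* had among the narrowest intervals, with log2 fold changes of -0.02 ± 0.06 (-0.15 to 0.11) in females and -0.04 ± 0.06 (-0.17 to 0.09) in males. *Sesn2* (chr4:132047947-132066416), a sestrin that restrains mTORC1 signalling and also responds to amino acid shortage, was at 50.9, 52.6 and 52.2 CPM in female WT and at 57.4, 48.4 and 53.8 CPM in female KO libraries, and at 62.0, 58.6 and 53.7 CPM in male WT and 56.7, 55.3 and 48.1 CPM in male KO libraries. Its log2 fold changes were 0.04 ± 0.08 and -0.12 ± 0.08. Its span overlaps the annotated non-coding transcript *Gm12981* on the same strand, the 1 such overlap among the 10 genes. *Btg2* (chr1:135971747-135975697), an antiproliferative cofactor of mRNA deadenylation, had log2 fold changes of -0.07 ± 0.11 and -0.05 ± 0.10, and its libraries are given with the comparison of the sexes. Leaving out single libraries moved these small values as well, from -0.12 to -0.018 for *Btg2* in females, from -0.081 to -0.0038 for *Ccng1* in males and from -0.18 to -0.053 for *Sesn2* in males.

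**Figure D2:**
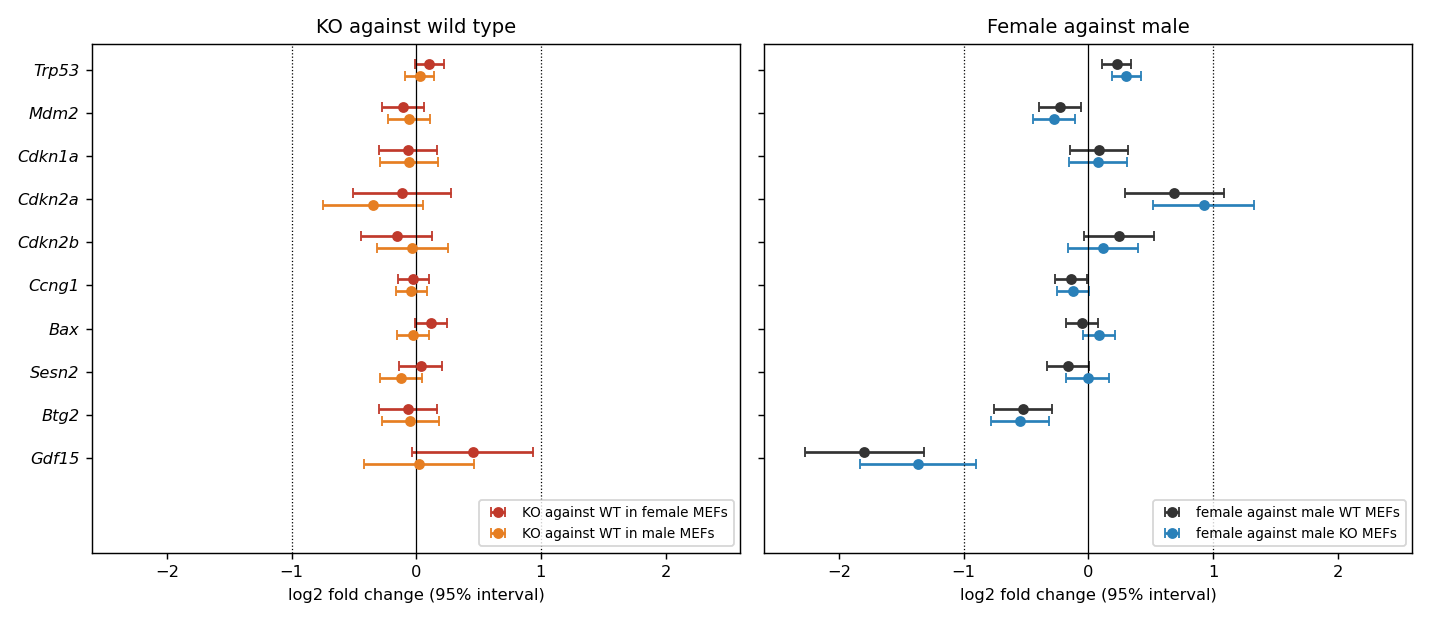
Log2 fold changes (horizontal axes, points) with 95% intervals (bars) of the 10 genes (vertical axis) for KO against WT in each sex (left) and for female against male MEFs in each genotype (right), from edgeR; dotted lines mark a 2-fold change. On the left all 20 intervals contain 0 and lie inside the dotted lines, and on the right *Gdf15* lies at -1.80 in WT and -1.37 in KO MEFs.

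Averaged over the sexes, 0 of 10 members were called by edgeR or by DESeq2 (0.0065% of all genes by edgeR and 0.0124% by DESeq2), 0 had an unadjusted p under 0.05 (6.24% of all genes), and the smallest adjusted p was 0.815. For the difference between the sexes in the KO effect, 0 of 10 were called by either tool (0% of all genes by edgeR and 0.00414% by DESeq2), 0 had an unadjusted p under 0.05 (3.19% of all genes), and the smallest adjusted p was 1.00. The difference was largest for *Gdf15*, with a log2 value of 0.43 ± 0.30 (-0.23 to 1.09, female minus male effect), and it ranged from 0.27 without female WT replicate 2 to 0.63 without female WT replicate 3.

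Other genes of the pathway were not called within either sex. Of 20 other p53 pathway genes, 4 were higher and 16 lower in female KO than in female WT MEFs, and 7 higher and 13 lower in males, with 0 called by edgeR. At an unadjusted p under 0.05 there were 3 in females and 0 in males, against 7.55% and 2.06% of all tested genes. The median log2 fold changes were -0.06 and -0.03. Averaged over the sexes, 3 were higher and 17 lower, with 3 at an unadjusted p under 0.05, against 6.24% of all tested genes. Of these 20 averaged values 0 were called, and the smallest adjusted p was 0.737 (edgeR). Furthest from 0 in females were the death receptor gene *Fas*, at -0.29 ± 0.20, and *Bbc3*, which encodes the pro-apoptotic PUMA, at 0.28 ± 0.17. In males they were *Fas*, at -0.28 ± 0.19, and the DNA repair gene *Ddb2*, at -0.28 ± 0.15. In 4 other CDK inhibitors 0 were called, and *Cdkn2c*, which encodes p18Ink4c, was furthest from 0 at 0.23 ± 0.15 and 0.31 ± 0.14.

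Of 11 G1 cyclins, CDKs and RB family genes, 0 were called in either sex (edgeR), and *Ccnd1*, which encodes cyclin D1, had a log2 fold change of 0.32 ± 0.06 in females with an adjusted p of 0.423 and of -0.09 ± 0.06 in males. The *Ccnd1* difference between the sexes in the KO effect was 0.41 ± 0.09, with an unadjusted p of 0.000798 and an adjusted p of 1.00 (edgeR). None of 8 regulators of the *Cdkn2a* locus, 10 integrated stress response genes or 9 senescence associated genes was called in either sex. The values furthest from 0 in these 3 lists were -0.60 ± 0.90 for the protease gene *Mmp3* and -0.57 ± 0.27 for *Igfbp3* in females. The 12 proliferation genes were each higher in KO than in WT in both sexes, with median log2 fold changes of 0.12 and 0.14, and 0 of 12 passed at an adjusted or an unadjusted p under 0.05 in either sex. Their largest values were 0.18 ± 0.13 for *Mki67* in females and 0.21 ± 0.13 for *Ccna2* in males. Averaged over the sexes, 12 of 12 were higher and 4 had an unadjusted p under 0.05, against 6.24% of all tested genes. The median log2 fold change was then 0.13 and the smallest adjusted p 0.772 (edgeR). Single libraries weighed on these values. Their summed level was 1608 to 1707 CPM in female WT and 1722, 1952 and 1695 CPM in female KO libraries, and 1528 to 1755 CPM in male WT and 1564, 1666 and 2142 CPM in male KO libraries. Without female KO replicate 2 the female median was 0.05, with 10 higher and 2 lower, and without male KO replicate 3 the male median was 0.02, with 7 higher and 5 lower. Without male KO replicate 1 the male KO libraries left were those at 1666 and 2142 CPM. The male median was then 0.22, with 12 higher and 8 at an unadjusted p under 0.05, and 0 were called (edgeR). The share of all tested genes at that limit in the same run is not given here.

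Markers of other cell types were set beside the genotypes as well. All 6 epithelial markers were lower in female KO than in female WT MEFs, with a median log2 fold change of -1.59 and the lowest value, -3.45 ± 0.90, for the basal keratin gene *Krt5*. Of these 3 had an unadjusted p under 0.05, against 7.55% of all tested genes, and 0 were called (smallest adjusted p 0.497, edgeR). One library carried much of this value. *Krt5* was at 0.982, 2.30 and 14.3 CPM in the female WT libraries and at 0.365 to 0.730 CPM in the female KO libraries, and without female WT replicate 3 the median of the 6 was -0.40, with 1 higher and 5 lower and 1 at an unadjusted p under 0.05. In male MEFs 5 were higher and 1 lower in KO, and 2 higher and 4 lower without male KO replicate 3. Of 8 macrophage markers 0 were called in either sex. Their part in the KO values of the members was not tested.

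A second comparison was of female with male MEFs of the same genotype, which the design allows though cultures and depth go with the sex. *Gdf15* was lower in female MEFs, and it was the 1 member called in WT and the 1 member called in KO MEFs, where 4.54% and 3.89% of all tested genes were called and 1.55% and 1.58% were called lower. At an adjusted p under 0.05 with no limit on the fold change, 5 of 10 members passed in WT and the same 5 in KO MEFs, where 38.7% of all tested genes passed in each. *Trp53* and *Cdkn2a* were higher in female MEFs, and *Mdm2*, *Btg2* and *Gdf15* were lower, that is 2 members higher and 3 lower, against 18.9% and 19.8% of all tested genes in WT and 18.9% and 19.7% in KO MEFs. Members whose female and male libraries did not overlap numbered 8 of 10 in WT and 5 of 10 in KO MEFs, against 51.9% and 50.2% of all tested genes. Whether the members differed more often than other genes was not tested.

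*Gdf15* was at 1.66 to 2.71 CPM in female WT and at 8.03, 9.07 and 5.55 CPM in male WT MEFs, from 75 to 144 and from 296 to 562 counts. In KO MEFs it was at 2.43 to 3.39 CPM in females and at 8.29, 7.96 and 6.80 CPM in males. No female library reached the lowest male library in either genotype. The female level was 3.47-fold lower in WT (log2 fold change -1.80 ± 0.22, adjusted p = 0.000149, edgeR) and 2.58-fold lower in KO MEFs (-1.37 ± 0.21, adjusted p = 0.000656), and with each library left out in turn the adjusted p did not exceed 0.00395.

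*Btg2* was at 72.6, 73.5 and 74.6 CPM in female WT and at 109, 118 and 90.7 CPM in male WT MEFs. In KO MEFs it was at 74.8, 65.1 and 70.6 CPM in females and at 113, 107 and 87.0 CPM in males. The female libraries lay close together below every male library. The female level was 1.44-fold lower in WT (log2 fold change -0.52 ± 0.11, adjusted p = 0.00297) and 1.46-fold lower in KO MEFs (-0.55 ± 0.11, adjusted p = 0.00238, edgeR), and both passed the threshold of 0.05 without any one library.

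The *Cdkn2a* level was 1.61-fold higher in female than in male WT MEFs (log2 fold change 0.69 ± 0.18, adjusted p = 0.0116) and 1.90-fold higher in KO MEFs (0.92 ± 0.18, adjusted p = 0.00271, edgeR). The lowest female library, at 17.2 CPM, lay above the highest male library, at 14.9 CPM. The log2 fold change in WT fell to 0.57 without female WT replicate 3, and leaving out single libraries took its adjusted p as high as 0.0513. In KO MEFs it ranged from 0.76 without male KO replicate 3 to 1.02 without male KO replicate 2, where it also passed the 2-fold limit. *Cdkn2b* followed the same direction without passing, with log2 fold changes of 0.24 ± 0.13 (adjusted p = 0.156) and 0.12 ± 0.13 (adjusted p = 0.502), and *Cdkn1a* had 0.09 ± 0.10 and 0.08 ± 0.10. The *Cdkn1a* value in WT ranged from 0.054 without male WT replicate 3 to 0.15 without male WT replicate 2.

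The pair of *Trp53* and *Mdm2* moved in opposite directions. *Trp53* was 1.17-fold higher in female WT (log2 fold change 0.23 ± 0.05, adjusted p = 0.00614) and 1.23-fold higher in female KO MEFs (0.30 ± 0.05, adjusted p = 0.00131, edgeR). *Mdm2* was 1.17-fold lower in female WT (-0.23 ± 0.08, adjusted p = 0.0370) and 1.21-fold lower in female KO MEFs (-0.28 ± 0.08, adjusted p = 0.0157). The *Mdm2* difference was the less stable, with an adjusted p up to 0.126 in WT and 0.0616 in KO MEFs when single libraries were left out. The remaining p53 targets *Ccng1*, *Bax* and *Sesn2* did not pass at 0.05 in either genotype with all libraries, and *Ccng1* passed in WT without female KO replicate 2 (adjusted p = 0.0398, edgeR). Their log2 fold changes were -0.14 ± 0.06, -0.05 ± 0.06 and -0.16 ± 0.08 in WT and -0.12 ± 0.06, 0.09 ± 0.06 and -0.01 ± 0.08 in KO MEFs. Leaving out single libraries moved *Bax* from -0.092 to -0.027 in WT and from 0.019 to 0.12 in KO MEFs, *Ccng1* from -0.17 to -0.066 in KO MEFs and *Sesn2* from -0.22 to -0.12 in WT MEFs.

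Among other genes of the pathway, 0 of 20 were called in either genotype by the fold-change rule, while 2 were higher and 4 lower in female WT MEFs at an adjusted p under 0.05, and 1 higher and 6 lower in KO MEFs. *Mdm4*, which encodes a partner of MDM2 that also restrains p53, was the furthest from 0. It was at 24.8 ± 0.94 CPM in female WT and 40.4 ± 2.06 CPM in male WT MEFs (SD, n = 3), which is -0.70 ± 0.06 on the log2 scale (edgeR, adjusted p = 3.34e-05), and at -0.74 ± 0.06 in KO MEFs. Of the 4 other CDK inhibitors, *Cdkn1c*, the imprinted gene for p57Kip2, was called in both genotypes. Its mean was 70.9 ± 2.83 CPM in female WT, 65.4 ± 8.43 CPM in female KO, 18.6 ± 0.52 CPM in male WT and 18.5 ± 0.17 CPM in male KO MEFs, and the female level was higher by log2 fold changes of 1.93 ± 0.08 (adjusted p = 1.49e-07) and 1.82 ± 0.08 (adjusted p = 2.35e-07).

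Of 10 integrated stress response genes, a pathway that also induces *Gdf15* and *Sesn2*, 1 was called in each genotype. *Chac1*, which encodes a glutathione-degrading enzyme, was lower in female MEFs by -1.33 ± 0.22 in WT and -1.31 ± 0.22 in KO MEFs (adjusted p = 0.000884 and 0.000993, edgeR). At an adjusted p under 0.05, 2 of the 10 were higher and 3 lower in female MEFs, in WT and in KO alike. The 3 lower genes in WT were *Chac1*, *Trib3* (-0.85 ± 0.22) and *Atf4* (-0.31 ± 0.06), which encodes the transcription factor of the pathway, and the 2 higher were the serine synthesis genes *Phgdh* and *Psat1* (0.21 ± 0.07 and 0.28 ± 0.08).

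Of 9 senescence associated genes, 3 were called in WT and 2 in KO MEFs. The cytokine gene *Il6* (-2.07 ± 0.33 and -1.78 ± 0.33) and *Igfbp5* (-1.74 ± 0.39 and -1.70 ± 0.39) were lower in female MEFs, and *Igfbp3* was higher in WT (1.26 ± 0.27, adjusted p = 0.00429, edgeR), so that the list had no common direction. Of 12 proliferation genes 0 were called in either genotype, and at an adjusted p under 0.05 there were 3 higher and 1 lower in female WT and 2 higher and 1 lower in female KO MEFs. Of 8 regulators of the *Cdkn2a* locus 0 were called, and at an adjusted p under 0.05 there were 1 higher and 2 lower in female WT and 0 higher and 1 lower in female KO MEFs. *Tbx2*, a T-box repressor of the locus, was furthest from 0 in WT at -0.53 ± 0.19, and *Ets2*, an activator of p16Ink4a, was at 0.32 ± 0.07. *Bmi1*, a Polycomb gene that represses *Cdkn2a*, was lower by -0.26 ± 0.04 in both genotypes. The list had no common direction, with 5 higher and 3 lower in female WT and 4 higher and 4 lower in female KO MEFs. In mean CPM of female and male WT MEFs, *Ezh2* was at 72.3 and 66.2 and *Twist1* at 29.6 and 26.5. *Cbx8* was at 4.45 and 4.22 and *Cbx7* at 0.761 and 0.727. In KO MEFs *Tbx2* was at 8.17 CPM in females and 10.1 CPM in males, and *Ets2* at 31.9 and 28.6 CPM. Among 11 G1 cyclins, CDKs and RB family genes 0 were called, and *Ccne1*, which encodes cyclin E1, was furthest from 0 at 0.70 ± 0.09 in both.

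Markers of other cell types moved with the sex of the cultures. Of 8 macrophage markers, 7 were called higher in female MEFs in both genotypes, led by *Lyz2*, *Tyrobp* and *Fcer1g*, with log2 fold changes between 2.90 and 3.31. Of 6 epithelial markers 4 were called higher in female WT and 1 in female KO MEFs, of 6 tested skeletal muscle markers 2 and 3, of 4 neural markers 2 and 2, and of 5 endothelial and 10 fibroblast markers 0 and 0. The 6 epithelial markers summed to 24.8 to 64.1 CPM in female WT, 20.2 to 22.04 CPM in female KO and 5.47 to 14.9 CPM in male libraries, and none of the markers in these lists was at 0 throughout a group. Their part in the differences of *Gdf15*, *Btg2*, *Cdkn2a*, *Trp53* and *Mdm2* was not tested.

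The third question was whether the 10 genes varied together between replicates of the same group. For each library the deviation from the mean of its group was taken on the scale of log2 CPM, and Pearson's r was computed for the 45 pairs of members over the 12 libraries. In 36 pairs r was above 0, with a median of 0.43 and a range of -0.43 to 0.89, and 0 pairs passed at an adjusted p under 0.05 in an exact permutation test within groups (two-sided, 1296 arrangements, adjusted over 45 pairs). At an unadjusted p under 0.05 there were 8 pairs. Whether pairs of members varied together more than pairs of other genes was not tested. The test can reach 0.000772 at the lowest.

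The pair with the highest r was *Mdm2* and *Ccng1*, at r = 0.891 (rho = 0.839, exact permutation p = 0.00386 and 0.00309, adjusted p = 0.104 and 0.0694). It was 0.866 in the female and 0.940 in the male libraries, and 0.925 without the 2 libraries furthest from the median of *Mdm2*. *Sesn2* and *Btg2* followed at r = 0.874 (rho = 0.776, exact permutation p = 0.0147 and 0.0309, adjusted p = 0.165 and 0.218), which was 0.805 without 2 libraries. *Cdkn2a* and *Cdkn2b*, which lie side by side on chromosome 4, had r = 0.810 (rho = 0.881, exact permutation p = 0.00463 and 0.00309, adjusted p = 0.104 and 0.0694), and 0.836 without 2 libraries.

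**Figure D3:**
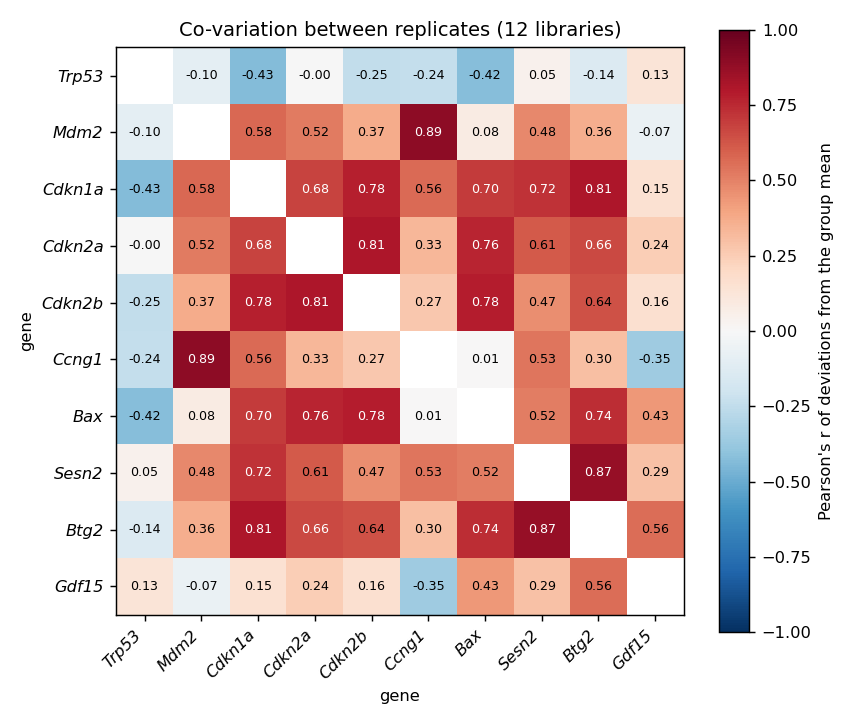
Pearson's r between the 10 genes (both axes) over 12 libraries, computed on deviations of log2 CPM from the group mean (colour scale from -1 to 1, values printed in the cells). The highest value is 0.89 for *Mdm2* and *Ccng1*, and *Trp53* has values between -0.43 and 0.13 with the other 9 genes.

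*Trp53* had r between -0.43 (*Cdkn1a*) and 0.13 (*Gdf15*) over all 12 libraries, and these pooled values joined unlike ones. With *Mdm2* the pooled r of -0.10 was 0.915 in the 6 female and -0.977 in the 6 male libraries, and 0.341 without male KO replicate 3 and male WT replicate 1. With *Cdkn2a* it was 0.717 in the female and -0.473 in the male libraries, and 0.433 without those libraries. Within 1 sex the permutation test has 36 arrangements and cannot go below 0.0278. There 0 pairs passed after adjustment, in the female and in the male libraries alike. In each group 1 library was low for most members. Male KO replicate 3 had the lowest level of its group for 9 of the 10 members and the highest for *Trp53*, with deviations on the log2 scale of -0.37 for *Cdkn2a*, -0.26 for *Cdkn1a*, -0.23 for *Btg2* and 0.09 for *Trp53*. Female WT replicate 1 and male WT replicate 3 were each lowest in their group for 8 members, and female KO replicate 2 for 7. Whether the same libraries were lowest for as large a share of all tested genes was not tested. In male MEFs replicate 3 was lowest in both WT and KO for 7 members, and the permutations moved libraries within each group independently, so a source shared by same-numbered libraries would not be reflected in these p-values. Without male KO replicate 3 the median r was 0.37 and 3 pairs had an unadjusted p under 0.05. The median r was 0.32 over the 6 female and 0.60 over the 6 male libraries.

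**Figure D4:**
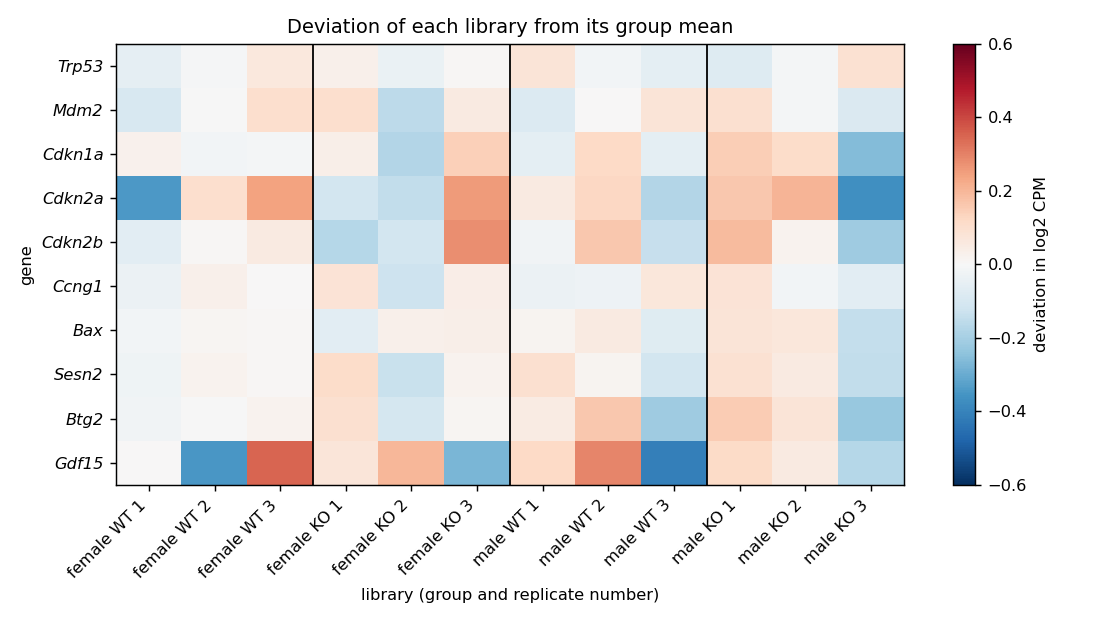
Deviation of each library (horizontal axis, 3 replicates for each of 4 groups separated by lines) from its group mean in log2 CPM (colour, blue lower and red higher) for the 10 genes (vertical axis). The last column, male KO replicate 3, is below its group mean for 9 genes and above it for *Trp53*, by 0.09.

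The summed level of the 12 proliferation genes, set beside the members after their values had been seen, was compared with them over the same libraries. Of the 4 libraries that were low for most members, male KO replicate 3 (2142 CPM), female KO replicate 2 (1952 CPM) and male WT replicate 3 (1755 CPM) had the highest sum of their groups, and female WT replicate 1 (1608 CPM) had the lowest. Over the 12 deviations *Btg2* had r = -0.907 (rho = -0.804, exact permutation p = 0.0154 and 0.0478, adjusted over 10 members p = 0.0772 and 0.0939), and r = -0.810 without male KO replicate 3 and male WT replicate 3. *Cdkn1a* had r = -0.898 (rho = -0.860, exact permutation p = 0.00617 and 0.01003, adjusted p = 0.0617 and 0.0939) and r = -0.829 without those libraries. *Sesn2* had r = -0.875 (rho = -0.790, exact permutation p = 0.0255 and 0.0301, adjusted p = 0.0849 and 0.0939) and r = -0.770 without them. No member passed after adjustment. *Trp53* had r = -0.399 in the female and 0.492 in the male libraries, and 0.0967 over all but those 2 libraries. Of the others, *Bax* had r = -0.761, *Cdkn2b* -0.701, *Cdkn2a* -0.664, *Ccng1* -0.443, *Mdm2* -0.436 and *Gdf15* -0.393. *Bax* was at 0.381 in the female and -0.979 in the male libraries, and *Gdf15* at 0.183 and -0.723. *Cdkn2a* was at -0.206 and -0.967, and *Cdkn2b* at -0.402 and -0.905. *Ccng1* was at -0.742 and -0.355, and *Mdm2* at -0.683 and -0.389.

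The genes whose pattern over the 12 libraries was closest to each member, by r of the same deviations among 10207 genes with a mean of at least 5 CPM, included no other member among the 3 closest. They are given as a description. For *Cdkn1a* they were *Arhgef18* (r = 0.986), *Dusp3* (0.985) and *A2ld1* (0.983), and for *Sesn2* they were *Tmem63b* (0.988), *6430598A04Rik* (0.986) and *Gdpd1* (0.972). For *Btg2* they included the lysosomal genes *Lamp1* (0.979) and *Ctsl* (0.979) after *E430025E21Rik* (0.980). *Mdm2* was closest to *Slc35f5* (0.968), *Ccng1* to *Gnpda2* (0.963), *Bax* to *Pkm2* (0.975) and *Trp53* to *4933427D14Rik* (0.947). *Cdkn2a* was closest to *Zfp622* (0.945), *Cdkn2b* to *Fam110b* (0.950) and *Gdf15* to *Dtx3* (0.957).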

How the data were processed

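RNA-seq of Firre KO and WT MEFs of both sexes was analysed (12 libraries, 42986516 to 65454660 counts each). The authors aligned filtered reads to mm9 by Bowtie 2, ran RSEM 1.2.29, and deposited its expected count for each gene, not normalized. The submitters' processing notes also name DESeq2 1.4.5 and R 3.1.0. The Hi-C files were not used here and the ChIP-seq libraries were not analysed here. Whether counting used strand is not given in the sources used here.

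These values, rounded to integers, were fitted in edgeR 4.0.16 (R 4.3.3, limma 3.58.1) with a quasi-likelihood model of the 4 groups (8 residual degrees of freedom), after TMM scaling and the filterByExpr filter, and p-values were adjusted by Benjamini-Hochberg over 15387 of 37310 genes. CPM used TMM-scaled library sizes, and co-variation used log2 CPM with a prior count of 2. Intervals are 95%. A call required an adjusted p below 0.01 and more than a 2-fold change, and a second rule only an adjusted p below 0.05. DESeq2 1.42.0, other scalings, filters, the replicate number as a block and leaving out each library were the alternatives. On simulated counts for the female comparison (15387 genes, 200 changed 4-fold) edgeR called 172 of the changed and 3 other genes. Smaller changes were not simulated, so this says nothing about how often they would be called. With 3 against 3 libraries an exact permutation test of a single gene cannot go below 0.1.

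The members and lists were chosen with earlier results of these data known. Named were *Firre*, all members, of each other list up to 4 called genes with the largest change (otherwise the 2 with the largest), and the 3 genes most like each member. *Trib3*, *Atf4*, *Phgdh*, *Psat1*, *Ezh2*, *Cbx7*, *Cbx8*, *Twist1*, *Bmi1* in WT MEFs and *Ets2* in KO MEFs were named after their values were seen. Promoter windows came from RefSeq (GRCm38.p6) and gene positions from the mm9 annotation, without conversion between builds.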

Additional observations from a re-analysis of the deposited data

How the results depend on the processing

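No member was called for KO against WT under any alternative run, and *Gdf15* was called in both comparisons of the sexes under every one. At an adjusted p under 0.05 with no limit on the fold change, the members called rose from 1 to 5 for female against male WT and from 1 to 5 for KO MEFs, and leaving out single libraries gave 1 to 2 in KO MEFs, with *Cdkn2a* added without male KO replicate 2. With library size alone as the scaling, 1 pair of members passed in the co-variation test in place of 0, and *Ccng1* had a difference between the sexes in the KO effect of -0.0087 on the log2 scale in place of 0.02. *Sesn2* in female against male KO MEFs turned from -0.01 to 0.000376 with DESeq2, to 0.000918 with DESeq2 size factors in edgeR and to 0.00141 with only those libraries in the fit. At the 0.05 rule alone, female against male WT gave 4 members with DESeq2 and with library size alone (without *Mdm2*), and 6 with only the libraries compared (with *Cdkn2b*), and the count was 5 under the other scalings and filters and, for KO MEFs, under each scaling and filter. Leaving out single libraries gave 4 to 6 members at that rule in WT and 4 to 5 in KO MEFs. No scaling or filter moved a member across the call rule with its fold limit.

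Leaving out each library in turn turned the direction of values near 0, none of them called. For KO against WT in males the log2 fold changes ranged from -0.060 to 0.044 for *Bax*, -0.15 to 0.058 for *Btg2*, -0.13 to 0.060 for *Cdkn1a*, -0.13 to 0.068 for *Cdkn2b*, -0.15 to 0.18 for *Gdf15* and -0.019 to 0.068 for *Trp53*. In females they ranged from -0.064 to 0.037 for *Ccng1*, -0.14 to 0.015 for *Cdkn1a*, -0.27 to 0.010 for *Cdkn2a* and -0.022 to 0.10 for *Sesn2*. The difference between the sexes in the KO effect ranged from -0.13 to 0.076 for *Btg2*, -0.026 to 0.075 for *Ccng1*, -0.13 to 0.073 for *Cdkn1a* and -0.10 to 0.026 for *Mdm2*. Female against male KO MEFs ranged from -0.043 to 0.16 for *Cdkn1a*, -0.038 to 0.21 for *Cdkn2b* and -0.076 to 0.057 for *Sesn2*.

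The labels name no source shared by equal replicate numbers, and same-numbered WT and KO deviations correlated across genes at -0.164, -0.118 and -0.152 in females and 0.0966, 0.216 and 0.333 in males. In males 5 of 6 libraries correlated best with their own number, and in females 0 of 6, a hint from the data and not from the design, and the numbers were not treated as pairs. With the replicate block 0 members were called for KO against WT in females, 0 in males and 1 in each comparison of the sexes, as without it. Over all genes the replicate block left 0 calls in place of 1 in each sex, which was *Firre*, and 639 in place of 698 and 508 in place of 599 for the sexes. The depth of 75 to 158 counts for *Gdf15* in female libraries went with the widest interval in the female comparison. Leaving out libraries for the proliferation and epithelial lists was added after seeing the data, and called 0 genes in each case. The cause of these changes was not tested.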
